A study of Mus musculus with 60 samples.

Results

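The genes described here are 9 genes of insulin, PI3K and AKT signalling in mouse liver. They are the insulin receptor Insr, the receptor substrates Irs1 and Irs2, the PI3K subunits Pik3r1 and Pik3ca, the kinases Akt1 and Akt2, and the transcription factors Foxo1 and Foxo3. They were chosen by name, as parts of 1 pathway, from the 38204 genes of the table, and 47 of its 123811 transcripts belong to them. The choice was made with earlier results of these data known. Each gene's level is the sum over its transcripts of RPKM, reads per kilobase of transcript scaled to the library's mapped reads, so levels of different genes can be compared per length. All 9 genes passed the filter on low values in every comparison.

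The RNA came from the left liver lobe of 60 male mice of the inbred, liver tumour-prone strain C3H/HeNCrl, which were 8 to 10 weeks old at the start. There were 20 groups of 3 mice, namely mice irradiated with 56Fe, 16O or 28Si ions at 0.2 Gy and non-irradiated control mice, each collected at 1, 2, 4, 9 and 12 months post-irradiation. 56Fe, 16O and 28Si are high-charge, high-energy ions of the kind found in space radiation. Different mice were used at each time, and the 3 controls of a time served all 3 ions, so the comparisons with control are not independent of each other. The labels give no alleles and no further treatment. In bulk liver, fewer cells of a type and less RNA per cell cannot be told apart.

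Insulin binding to its receptor leads to phosphorylation of the IRS proteins, which recruit PI3K. The lipid that PI3K makes brings AKT to the membrane, where it is activated, and AKT phosphorylates FOXO factors and keeps them out of the nucleus. In liver this lowers transcription of gluconeogenic genes and of Igfbp1 and Irs2, which FOXO factors activate, and raises transcription of lipogenic genes. Most of this control acts on protein phosphorylation, which RNA sequencing does not measure.

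The 60 libraries held 11413011 to 40568208 mapped read pairs (median 18891376), as recovered from the steps between low values. Transcripts took a median of 52.9%, 56.9%, 81.8%, 83.9% and 78.1% of these reads at 1, 2, 4, 9 and 12 months, and at 4 months the second 28Si library lay at the bottom with 56%. Hepatocyte markers (9 of the 10 listed) summed to 17085 to 51358 RPKM with none at 0 in any library. Markers of adipocytes, pancreatic acinar cells and skeletal muscle summed to at most 2.33, 1.04 and 2 RPKM, with Adipoq, Plin1 and the other adipocyte markers all at 0 in some libraries. Kupffer cell markers summed to 44.9 to 770 RPKM and lymphocyte markers to 2.24 to 26.5 RPKM. The second 16O library at 12 months stood apart in several of the genes below, and results that rest on it are given with and without it.

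Among the 9 genes, Irs1 and Irs2 parted most from their group in that library, with log2 deviations of -1.35 and 2.07. The FOXO target Igfbp1 deviated by 5.50 there. The 250 bases before the transcription start of these 3 genes are shown from RefSeq (GRCm38.p6). Capitals mark matches to CACGTG, the E-box bound by factors such as SREBP-1 and the clock proteins, and to TGTTTTG or its reverse complement CAAAACA, the core of the insulin response sequence. The windows are chr1:82291440-82291689 on the minus strand for Irs1, chr8:11008930-11009179 on the minus strand for Irs2 and chr11:7197537-7197786 on the plus strand for Igfbp1.
Irs1: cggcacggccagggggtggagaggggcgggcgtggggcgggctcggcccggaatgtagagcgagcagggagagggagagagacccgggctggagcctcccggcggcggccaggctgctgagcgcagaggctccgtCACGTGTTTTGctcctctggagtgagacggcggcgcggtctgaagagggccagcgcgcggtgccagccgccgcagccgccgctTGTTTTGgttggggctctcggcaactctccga
Irs2: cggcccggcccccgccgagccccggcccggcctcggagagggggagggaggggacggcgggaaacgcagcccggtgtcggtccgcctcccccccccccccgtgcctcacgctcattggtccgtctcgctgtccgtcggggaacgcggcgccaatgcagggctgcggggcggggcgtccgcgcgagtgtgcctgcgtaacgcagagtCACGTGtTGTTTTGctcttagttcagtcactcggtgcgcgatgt
Igfbp1: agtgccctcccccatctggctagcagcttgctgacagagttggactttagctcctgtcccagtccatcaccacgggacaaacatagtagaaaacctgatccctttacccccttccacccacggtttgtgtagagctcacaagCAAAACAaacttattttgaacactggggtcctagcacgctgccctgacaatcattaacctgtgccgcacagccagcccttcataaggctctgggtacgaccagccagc
In Irs1 an E-box began 115 bases before the start and overlapped a TGTTTTG that began at 111, and a second TGTTTTG began 32 bases before the start. In Irs2 an E-box at 44 bases was followed by TGTTTTG at 37 bases, counted from the RefSeq start, which lies upstream of the end of the gene as GENCODE M21 places it (11008458). Igfbp1 had CAAAACA at 108 bases and no E-box. On either strand of 250-base windows, CACGTG was in 6.02% of 32841 promoters, TGTTTTG in 5.56% and both in 0.295%. A RefSeq window was matched for 8 of the 9 genes (13 windows), and Irs1 and Irs2 were the members with either motif. TGTTTAC, a FOXO core held by 3.17% of promoters, was found in the Akt1 window at 161 bases and in no other member's. These are letter matches, not binding sites.

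Over the 60 libraries the receptor stood highest and its substrate Irs1 lowest. Mean levels were 31.5 RPKM for Insr, 26.9 for Akt2, 23.5 for Pik3r1, 14.5 for Foxo3, 13.5 for Akt1, 6.84 for Pik3ca, 3.73 for Irs2, 2.58 for Foxo1 and 2.46 for Irs1. Pik3r1 was above Foxo3 and Akt1 above Pik3ca in 60 of 60 libraries. Other neighbours changed places: Insr was above Akt2 in 44 libraries, Akt2 above Pik3r1 in 36, Foxo3 above Akt1 in 39, Pik3ca above Irs2 in 53, Irs2 above Foxo1 in 50 and Foxo1 above Irs1 in 28. Foxo1 and Irs1 were thus not separable by level. Against the 28655 genes with a value above 0 in some library, the mean of Insr lay at percentile 95.5 and that of Irs1 at 71.8. Reads behind a gene in a library numbered at least 95 (Irs1) and at most 9607 (Insr).

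**Figure D1:**
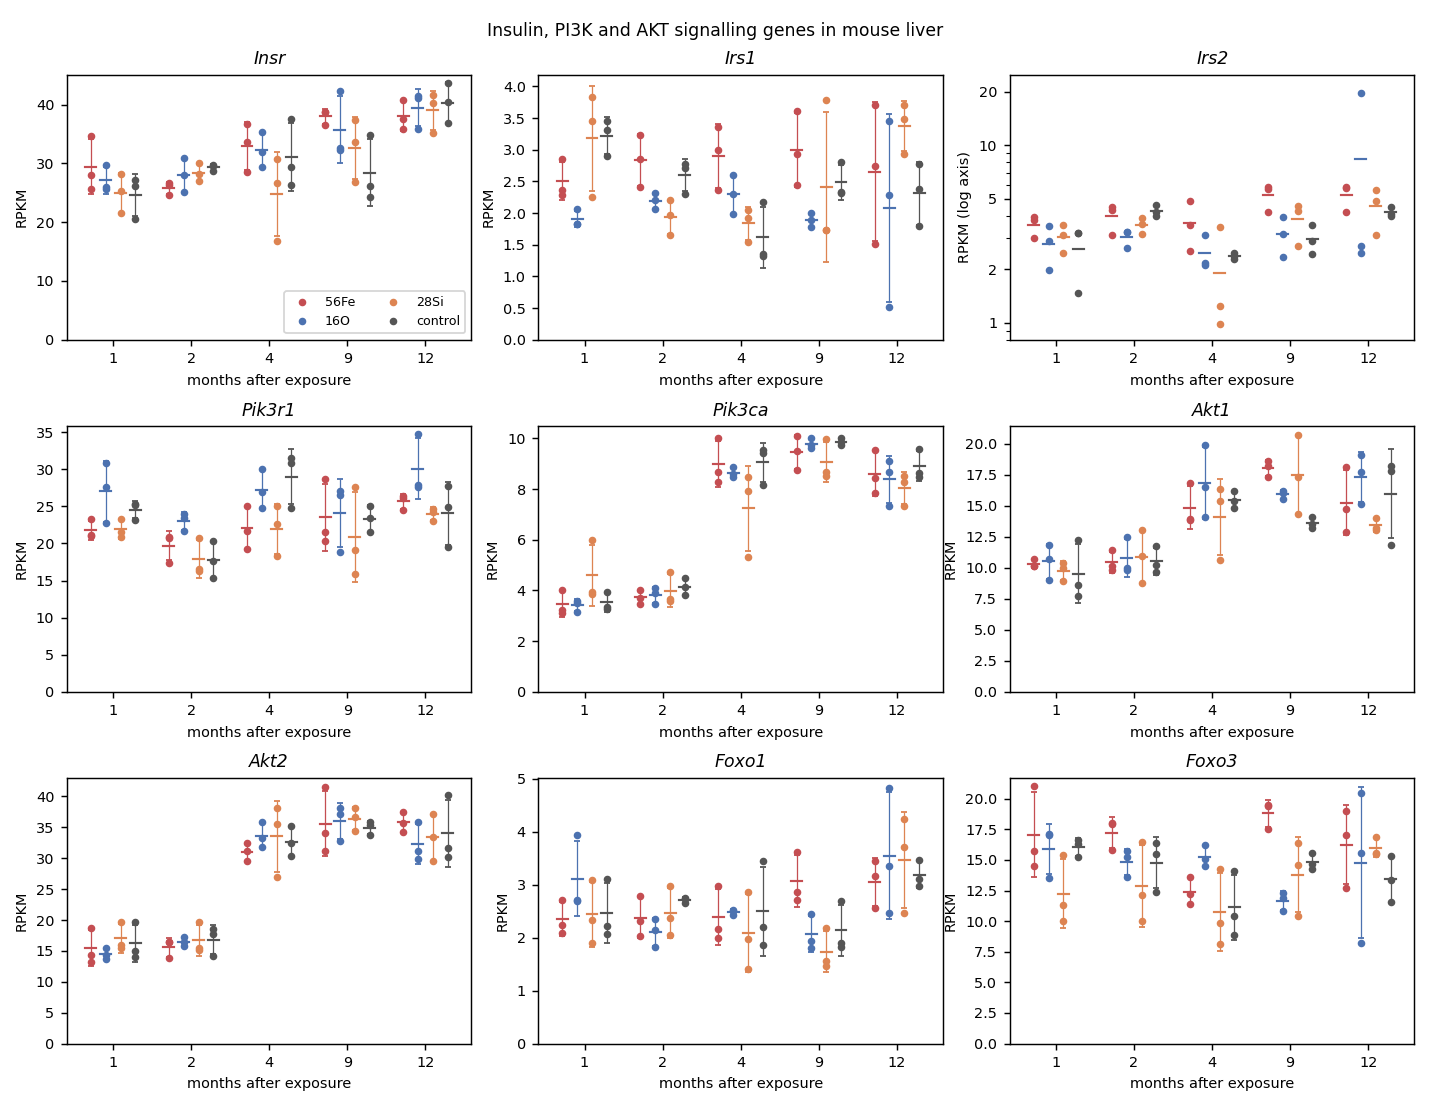
RPKM of each gene (y axis, from 0; a log axis for Irs2) by months post-irradiation (x axis) in 56Fe, 16O, 28Si and control livers. Points are mice, short lines are means of 3, and error bars are SD except in the Irs2 panel, which has none; the single high Irs2 point, 19.8 RPKM, is a 16O liver at 12 months.

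Insr (chromosome 8 of GRCm38, 3122061 to 3279617, minus strand) encodes the receptor tyrosine kinase that binds insulin. Its lowest, median and highest levels were 20.5, 26.1 and 34.6 RPKM at 1 month, 24.6, 28.1 and 30.9 at 2 months, 16.8, 30 and 37.5 at 4 months, 24.2, 34.3 and 42.3 at 9 months, and 35.2, 40.3 and 43.7 at 12 months (12 libraries each). The 12-month libraries all lay above the 1-month ones. Levels here and for the genes below are RPKM as deposited. On that scale the median of all genes was itself 0.42 higher on the log2 scale at 4 months than at 2 months. With libraries scaled to each other, Insr was lower by 0.35 between those times. The lowest library of all was the second 28Si one at 4 months.

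Irs1 (chromosome 1, 82233101 to 82291416, minus strand) and Irs2 (chromosome 8, 10984681 to 11008458, minus strand) encode the docking proteins that the receptor phosphorylates. Irs1 ran between 0.512 and 3.84 RPKM and Irs2 between 0.984 and 19.8 RPKM, the largest ratios of highest to lowest among the 9 genes. The ratio of Irs2 to Irs1 had a median of 1.4 and a range of 0.481 to 38.7. Both extremes of level, the lowest Irs1 and the highest Irs2, came from the same mouse, the second 16O one at 12 months. The SD was 71% of the mean for Irs1 and 119% for Irs2 in that group of 3, against medians over the 20 groups of 14% and 19.1%.

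Pik3r1 (chromosome 13, 101680563 to 101768217, minus strand) encodes the regulatory subunits that bind IRS proteins, and Pik3ca (chromosome 3, 32397671 to 32468486, plus strand) the catalytic subunit p110alpha. Pik3r1 lay between 15.4 and 34.8 RPKM. Pik3ca had 3.11 to 5.99 RPKM at 1 month, 3.46 to 4.74 at 2 months, 5.32 to 10 at 4 months, 8.53 to 10.1 at 9 months, then 7.34 to 9.59 at 12 months. The early and late libraries overlapped only through the first 28Si liver of 1 month, at 5.99 RPKM, and the lowest library of 4 months. The median ratio of Pik3r1 to Pik3ca was 6.79, 4.82, 3.09, 2.34 and 3.15 at these times. Pik3ca was also the gene with the smallest spread within groups, with a median SD of 8.39% of the mean.

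Akt1 (chromosome 12, 112653821 to 112674884, minus strand) and Akt2 (chromosome 7, 27591552 to 27640826, plus strand) encode the serine/threonine kinases, of which AKT2 is the one most tied to glucose metabolism. Akt2 was the more abundant in every library, at 1.28 to 2.87 times the Akt1 level (median 1.92). Akt2 had 13.2 to 19.7 RPKM at 1 month and 13.8 to 19.6 at 2 months, then 27 to 38.1 at 4 months, 31.2 to 41.5 at 9 months and finally 29.6 to 40.2 at 12 months. No library from 4 months on overlapped an earlier one. Akt1 had medians of 10.1, 10.1, 15.4, 16.1 and 14.9 RPKM at the 5 times and its ranges did overlap. With libraries scaled to each other, its log2 difference between 2 and 4 months was 0.07 and was not called.

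Foxo1 (chromosome 3, 52268336 to 52353221, plus strand) and Foxo3 (chromosome 10, 42181841 to 42276755, minus strand) encode the forkhead factors that AKT phosphorylates. Foxo3 was the higher by 3.34 to 9.98 times (median 5.65). Foxo1 had medians of 2.51, 2.36, 2.31, 2.06 and 3.26 RPKM and Foxo3 of 15.6, 15.6, 12.9, 14.6 and 15.6 RPKM at the 5 times. Both varied among mice of a group, by a median SD of 20.6% of the mean for Foxo1 and 13.5% for Foxo3.

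Whether irradiation changed these genes was asked by setting each ion's 3 livers against the 3 control livers of the same time. None of the 9 genes was significantly different in any of the 15 comparisons (0 of 135 tests passed an adjusted p of 0.05 in limma, with Benjamini-Hochberg adjustment over all genes tested). In these comparisons the share of all genes called was 1.18%, 0.00%, 0.541%, 3.65% and 0.00% for 56Fe at 1, 2, 4, 9 and 12 months, 1.60%, 0.00%, 0.00%, 1.11% and 0.00878% for 16O, and 0.244%, 0.0181%, 0.382%, 0.124% and 0.0176% for 28Si. At an unadjusted p under 0.05 there were 21 of the 135 tests, or 15.6%, against 11.1% over all genes. Groups that did not overlap in RPKM as deposited numbered 22, or 16.3%, against 14.3% over all genes. Both shares lay close to those of all genes.

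Member by member, the groups separate from control in RPKM as deposited were these. In 56Fe livers they were Irs1 at 1 month, Insr at 2 months, Irs1 and Irs2 at 4 months, Insr, Irs2, Akt1, Foxo1 and Foxo3 at 9 months and none at 12 months, where 12.6%, 15.2%, 17.2%, 28.1% and 7.94% of all genes were separate. In 16O livers they were Irs1 at 1 month, Irs2, Pik3r1 and Foxo1 at 2 months, Foxo3 at 4 months, Irs1, Akt1 and Foxo3 at 9 months and none at 12 months, where 14.7%, 14%, 10.7%, 20.3% and 7.69% were. In 28Si livers they were Irs1 and Irs2 at 2 months, Akt1 at 9 months, Irs1 and Foxo3 at 12 months and none at 1 or 4 months, where 10.8%, 8.25%, 15.6%, 19.5% and 11.2% of all genes were separate at the 5 times. Pik3ca and Akt2 were separate in no comparison.

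**Figure D2:**
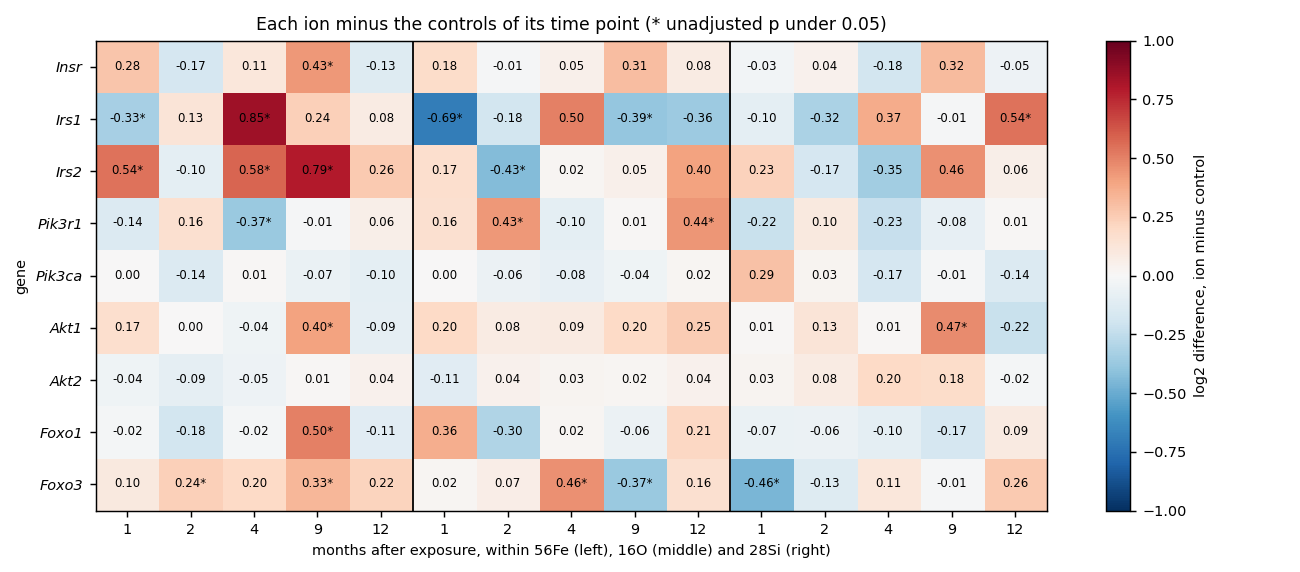
Log2 difference of each ion minus the controls of its time point (colour, and number in each cell) for the 9 genes (y axis) at 1 to 12 months within 56Fe, 16O and 28Si (x axis); stars mark an unadjusted p under 0.05. The 56Fe column at 9 months holds the most stars, 5, and no cell passed the adjusted threshold.

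The comparison with the most members separate from control was 56Fe at 9 months. Irs2 had 5.66, 5.78 and 4.19 RPKM in 56Fe livers, against 2.88, 2.43 and 3.57 RPKM in control livers. The groups did not overlap, with a log2 difference of 0.79 (SE 0.21, adjusted p = 0.0673 from limma). Akt1 had 18.2, 18.6 and 17.3 RPKM in 56Fe livers, against 13.5, 13.2 and 14.1 RPKM in control livers, a log2 difference of 0.40 (SE 0.11, adjusted p = 0.0710 from limma). Here too every 56Fe liver was above every control. Foxo3 had 19.5, 17.5 and 19.4 RPKM in 56Fe livers, against 14.7, 14.3 and 15.6 RPKM in control livers, a log2 difference of 0.33 (SE 0.09, adjusted p = 0.0774 from limma).

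The receptor and Foxo1 were also separate between the groups at 9 months. Insr had 36.5, 38.7 and 38.8 RPKM in 56Fe livers, against 26.2, 24.2 and 34.9 RPKM in control livers, a log2 difference of 0.43 (SE 0.15, adjusted p = 0.121 from limma). Foxo1 had 2.86, 2.71 and 3.62 RPKM in 56Fe livers, against 1.9, 1.82 and 2.68 RPKM in control livers, a log2 difference of 0.50 (SE 0.19, adjusted p = 0.137 from limma). In both genes the control numbered 3 lay nearest the 56Fe livers. So 5 of 9 members did not overlap in this comparison, in which 28.1% of all genes did not, and the median log2 difference of the 9 was 0.33. The remaining members overlapped, with log2 differences of 0.24 for Irs1, -0.07 for Pik3ca, 0.01 for Akt2 and -0.01 for Pik3r1. Without the control numbered 3, Insr, Irs2 and Foxo1 passed, with adjusted p of 0.0266, 0.0431 and 0.0488 from limma. Without the 56Fe liver numbered 3, Irs2 and Akt1 passed, at 0.0299 and 0.0476. Kupffer cell markers, the 11 summed, were 169 to 276 RPKM in these 56Fe livers and 113 to 200 RPKM in the controls, and 11 of 11 had a log2 difference above 0. Sinusoidal endothelial markers summed to 81.5 to 111 RPKM in 56Fe livers and 106 to 136 RPKM in the controls. The part of these cells in the result was not tested.

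Irs1 showed the lowest p of all tests against control, in 16O livers at 1 month. It had 1.83, 2.06 and 1.83 RPKM in 16O livers, against 2.9, 3.45 and 3.32 RPKM in control livers. The log2 difference was -0.69 (SE 0.16, 95% interval -1.04 to -0.34, adjusted p = 0.0642 from limma), and the groups did not overlap, like 14.7% of all genes. In 56Fe livers at 4 months Irs1 ran the other way. It had 2.36, 2.99 and 3.36 RPKM, against 1.33, 2.17 and 1.35 RPKM in control livers, a log2 difference of 0.85 (SE 0.21, adjusted p = 0.158 from limma). Irs1 was separate from control in 6 of 15 comparisons, some of which share controls, where 14.3% of the tests over all genes were separate. It was lower in 16O at 1 and 9 months, 56Fe at 1 month and 28Si at 2 months, and higher in 56Fe at 4 months and 28Si at 12 months.

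The lowest p against control of the 3 members not yet given came from other groups. Pik3r1 had 21.7, 24 and 23.4 RPKM in 16O livers at 2 months, against 17.7, 15.4 and 20.4 RPKM in control livers, a log2 difference of 0.43 (SE 0.12, adjusted p = 0.403 from limma). These groups were separate, like 14% of all genes. For Pik3ca it was 28Si at 1 month, with 5.99, 3.86 and 3.94 RPKM in 28Si livers, against 3.35, 3.28 and 3.94 RPKM in control livers (adjusted p = 0.405 from limma). For Akt2 it was 28Si at 4 months, with 35.5, 27 and 38.1 RPKM in 28Si livers, against 32.4, 30.4 and 35.2 RPKM in control livers (adjusted p = 0.465 from limma). In both the groups overlapped.

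A difference kept over the 5 times was looked for in the average of 15 irradiated against 15 control livers. None of the 27 averages passed (5 had an unadjusted p under 0.05, limma), while 1.12%, 0.668% and 2.31% of all genes did for 56Fe, 16O and 28Si. The averages with the lowest p were 0.18 for Pik3r1 in 16O on the log2 scale (SE 0.06, adjusted p = 0.177 from limma), 0.21 for Foxo3 in 56Fe (SE 0.08, adjusted p = 0.185) and 0.16 for Akt1 in 16O (SE 0.06, adjusted p = 0.248). The upper ends of their 95% intervals were 0.31, 0.37 and 0.28. Irs2 in 56Fe averaged 0.40 with an interval of 0.03 to 0.78. Whether an ion's difference from control depended on time gave no call either (0 of 27 F tests). Pik3ca in 28Si had the lowest p (F = 4.19, adjusted p = 0.252 from limma) and Insr in 56Fe the second lowest (F = 3.15, adjusted p = 0.284), while 0.966%, 0.864% and 0.0785% of all genes passed for 56Fe, 16O and 28Si.

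The ions were also set against each other at each time, with 12 libraries in a fit. Of 135 tests 1 passed, Irs1 in 16O against 28Si at 1 month, where 13.8% of all genes passed. In the order 56Fe against 16O, 56Fe against 28Si and 16O against 28Si, the share of all genes called was 0.199%, 9.37% and 13.8% at 1 month, 0.374%, 1.17% and 0.582% at 2 months, 0.0688%, 0.981% and 0.318% at 4 months, 0.00%, 0.255% and 0.383% at 9 months, and 0.00% in all 3 pairs at 12 months. Irs1 had 1.83, 2.06 and 1.83 RPKM in 16O livers, against 3.46, 2.25 and 3.84 RPKM in 28Si livers. No 16O liver reached a 28Si liver, as held for 26.9% of all genes, and the log2 difference was -0.60 (SE 0.16, 95% interval -0.95 to -0.25, adjusted p = 0.0261 from limma). Leaving out 1 library at a time gave adjusted p from 0.0125 to 0.0983, and the call was lost without 16O replicate 1 or 3 and without 28Si replicate 1 or 3. The second 28Si library was the one closest to the 16O livers.

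In this comparison 15 of 16 tested circadian clock genes also differed, 11 higher and 4 lower in 16O than in 28Si. Arntl (BMAL1), which drives the clock's E-box transcription, had 0.224, 0.177 and 0.284 RPKM in 16O livers, against 3.8, 2.31 and 2.88 RPKM in 28Si livers. Dbp, an output of the clock, had 67.5, 65.3 and 67.1 RPKM in 16O livers, against 15.2, 13.7 and 16.9 RPKM in 28Si livers. Of 21 FOXO targets 3 fell and 0 rose in 16O relative to 28Si, a share near the 13.8% of all genes, and the list had a median log2 difference of 0.01. They were Igfbp1, by 1.63 on the log2 scale (adjusted p = 0.0105 from limma), Pdk4, an inhibitor of pyruvate dehydrogenase, by 2.44 (adjusted p = 0.000680), and Mttp, which loads lipid onto lipoproteins, by 0.38 (adjusted p = 0.0357). The hour of collection is not given in the labels or the methods, and its part in the Irs1 difference was not tested.

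Other pairs of ions gave no call among the 9 genes. Foxo3 at 9 months had the lowest p, with 19.5, 17.5 and 19.4 RPKM in 56Fe livers, against 12.3, 10.8 and 11.9 RPKM in 16O livers. Its log2 difference was 0.69 (SE 0.14, adjusted p = 0.174 from limma). Akt1, Foxo1, Foxo3, Irs1 and Irs2 were all separate and higher in 56Fe in that pair, where 17.8% of all genes were separate. Foxo1 at 9 months had 2.86, 2.71 and 3.62 RPKM in 56Fe livers, against 1.46, 1.56 and 2.18 RPKM in 28Si livers (log2 difference 0.68, SE 0.20, adjusted p = 0.163 from limma). For the other members the lowest p among ion pairs went with log2 differences of 0.33 for Pik3r1 (16O minus 28Si, 2 months), -0.26 for Akt2 and 0.92 for Irs2 (56Fe minus 28Si, 4 months), -0.32 for Pik3ca and 0.29 for Insr (56Fe minus 28Si, 1 month) and 0.46 for Akt1 (16O minus 28Si, 12 months). Their adjusted p from limma ran from 0.116 to 0.684.

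Time of collection gave more calls among these genes than the ions did. The tests of time used more libraries than a test of an ion at a given time, so the counts do not compare sizes. For Akt1, Insr and Irs1, the scaled step between 2 and 4 months was smaller in size than a difference from control given above. Over all groups 8 of 9 members differed between the 5 times (F test, limma, 79.4% of all genes), the exception being Akt1 (adjusted p = 0.108). In control livers alone 7 of 9 did (56.3% of all genes), with Irs2 at an adjusted p of 0.0691 and Akt1 at 0.340. Both shares were near or above those of all genes. The largest F belonged to Pik3ca (145) and Akt2 (111). Age, time post-irradiation and the share of reads in transcripts changed together between 2 and 4 months and cannot be told apart.

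Between 2 and 4 months, 7 of 9 genes changed with libraries scaled to each other, in a step that 66.7% of all genes took (33.6% higher and 33.2% lower). Pik3ca rose by 0.65 (SE 0.05) and Akt2 by 0.55 (SE 0.04) on the log2 scale. The FOXO factors and the receptor arm went down: Foxo3 fell by 0.72 (SE 0.09), Foxo1 by 0.48 (SE 0.10), Irs2 by 1.02 (SE 0.21), Irs1 by 0.60 (SE 0.15) and Insr by 0.35 (SE 0.07), with adjusted p from limma of at most 0.000484. Pik3r1 (-0.10) and Akt1 (0.07) did not pass.

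The scaling sets the direction of part of this step. In RPKM as deposited the median gene itself was 0.42 higher at 4 months, and 72.1% of all genes were called. Of called genes 81.2% were higher, against 50.3% after scaling. On that scale Pik3ca (1.09), Akt2 (0.99), Akt1 (0.52) and Pik3r1 (0.35) rose, Irs2 fell by 0.58 and Foxo3 by 0.28, and Irs1 (-0.17), Foxo1 (-0.05) and Insr (0.09) did not pass, Insr with its sign turned. Pik3ca and Akt2 upward and Irs2 and Foxo3 downward thus held on both scales for RPKM summed over a gene's transcripts. For Foxo3 the main transcript alone was higher in deposited RPKM, with medians of 10.4 at 4 months and 7.36 at 2 months. A short transcript was lower, with 1.8 at 4 months and 5.62 at 2 months. Over the 60 libraries the scaled level of Pik3ca had r = 0.912 with the share of reads in transcripts, Akt2 r = 0.854, Foxo3 r = -0.673 and Pik3r1 r = -0.573, as a description of libraries that share times. With that share as a covariate 5 genes passed (28.3% of all genes): Pik3ca and Akt2 higher, Irs2, Foxo1 and Foxo3 lower. The covariate's slope comes from mice within groups, so this fit cannot tell the step and the share apart.

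**Figure D3:**
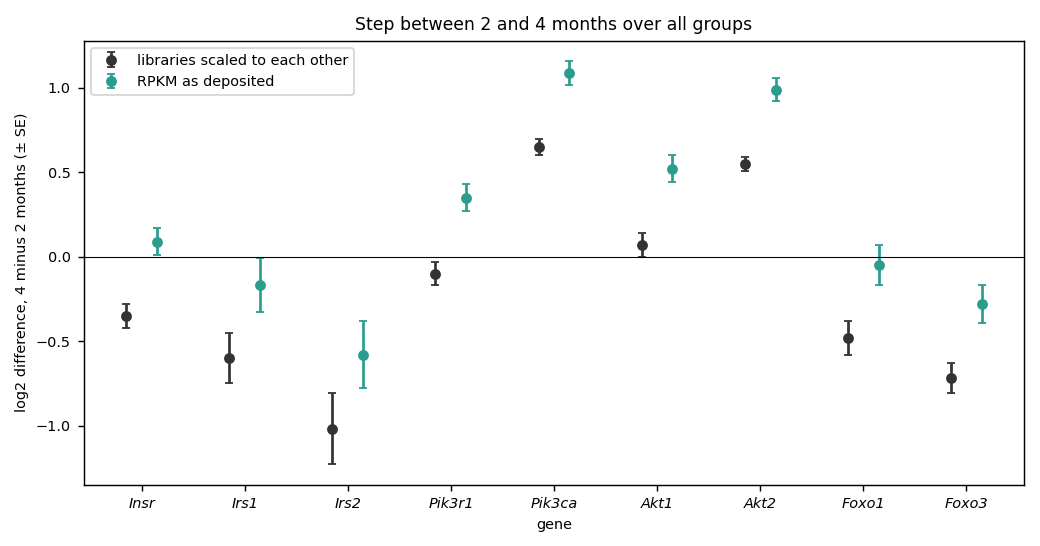
Log2 difference between 4 and 2 months averaged over the 4 groups (y axis, with SE) for each gene (x axis), with libraries scaled to each other (dark) and in RPKM as deposited (green). In these sums over transcripts Pik3ca and Akt2 lie above 0 and Irs2 and Foxo3 below 0 on both scales, and Insr lies on opposite sides.

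Each group took this step in its own mice. Pik3ca, Akt2 and Foxo3 passed in all 4 groups, with Pik3ca higher by 0.82 in 56Fe, 0.66 in 16O, 0.46 in 28Si and 0.66 in control, and Foxo3 lower by -0.91, -0.46, -0.64 and -0.88 in the same order. Calls among the 9 numbered 3 in 56Fe, 3 in 16O, 6 in 28Si and 7 in control, where 40.6%, 47.5%, 38.9% and 38.6% of all genes passed. Irs1 passed in control alone, by -1.12 (SE 0.30), with 1.33, 2.17 and 1.35 RPKM at 4 months, against 2.31, 2.71 and 2.78 RPKM at 2 months. Its F test for the 56Fe difference over time did not pass (adjusted p = 0.475 from limma), so the groups are not shown to differ.

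The other steps were smaller. Between 1 and 2 months Pik3r1 fell by 0.29 on the log2 scale (SE 0.07, adjusted p = 0.0220 from limma), the single call, where 1.30% of all genes passed. Its medians were 20.6 RPKM at 2 months and 23.3 RPKM at 1 month, and the call was lost without any 1 of the 3 replicate sets (adjusted p of 0.163 to 0.214). Between 4 and 9 months no member passed (4 had an unadjusted p under 0.05, limma, and 1.08% of all genes passed). Without the second 16O library of 12 months, Irs2 passed as higher at 9 months than at 4 months, by 0.51 (adjusted p = 0.0398 from limma).

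Between 9 and 12 months, 4 of 9 passed, against 21% of all genes. Foxo1 rose by 0.58 on the log2 scale (SE 0.10, adjusted p = 8.33e-05 from limma), with medians of 3.26 RPKM at 12 months and 2.06 RPKM at 9 months. Insr rose by 0.26 (SE 0.07, adjusted p = 0.00682), Pik3r1 rose by 0.21 (SE 0.07, adjusted p = 0.0264) and Pik3ca fell by 0.14 (SE 0.05, adjusted p = 0.0253). Foxo1 passed in 16O (0.86) and 28Si (0.89) livers and had 0.59 in control (adjusted p = 0.0681 from limma), where 10.7%, 5.25% and 4.94% of all genes passed. In 56Fe livers its log2 difference was -0.01 (95% interval -0.41 to 0.39), with means of 3.05 RPKM at 12 months and 3.06 RPKM at 9 months, and whether the groups differ in this step was not tested. In control livers Insr was the member called, 0.54 higher at 12 months (SE 0.14, adjusted p = 0.0230), with 36.8, 40.4 and 43.7 RPKM at 12 months, against 26.2, 24.2 and 34.9 RPKM at 9 months. It did not pass in any refit without 1 replicate number (adjusted p of 0.0787 to 0.389 from limma). Over all groups Foxo1 was called in every refit without 1 replicate number, and the other 3 were each lost in at least 1 of them. Without replicates numbered 2, Foxo1 alone remained, and without the second 16O library at 12 months Pik3ca was lost (adjusted p = 0.0591 from limma).

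The transcripts that made up a gene's RPKM also differed between early and late libraries. Irs1, Irs2 and Foxo1 are annotated with 1 transcript each, and the other 6 genes with 4 to 14. Transcripts annotated as retained intron, which keep intron sequence, took 0.405% to 5.07% of the Insr RPKM (median 1.62%) in the 36 libraries of 4 to 12 months. In the 24 libraries of 1 and 2 months they took 6.94% to 40.9% (median 27.5%), with no overlap. Of Pik3r1 they took 1.24% to 12.9% (median 5.05%) late and 12.7% to 46.9% (median 26.7%) early. Akt2 had medians of 1.44% late and 8.48% early, and Akt1 of 1.59% late and 6.53% early, both with overlap. How reads common to several isoforms were assigned depends on the authors' mapping.

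**Figure D4:**
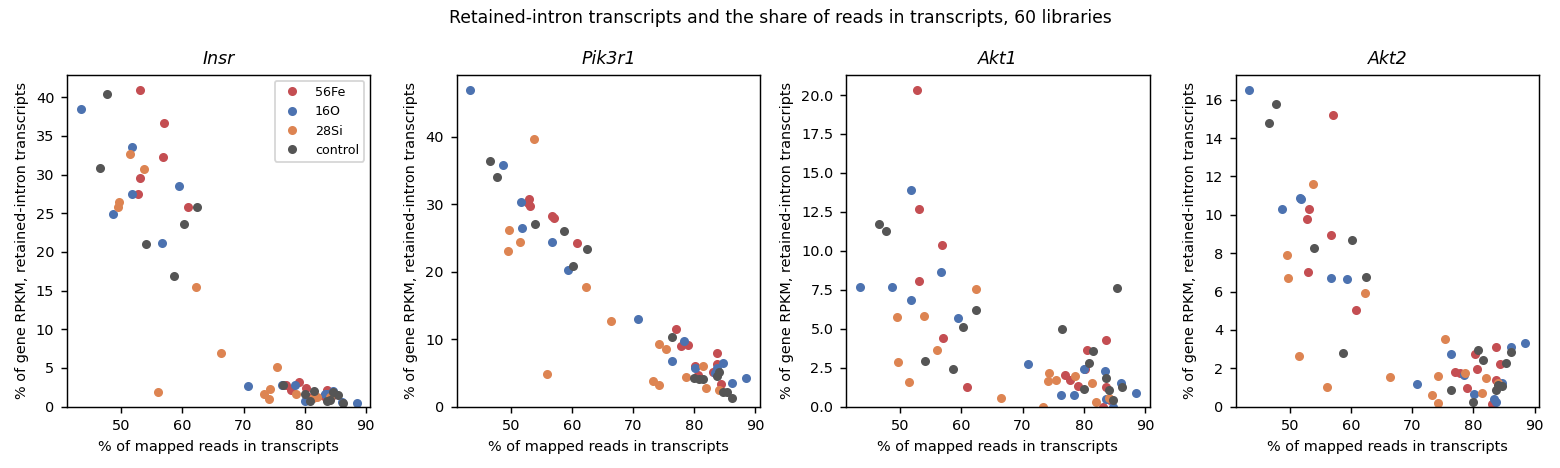
Percent of a gene's RPKM in retained-intron transcripts (y axis) against the percent of mapped reads that fell in transcripts (x axis) for Insr, Pik3r1, Akt1 and Akt2, with a point per library in 56Fe, 16O, 28Si and control. For Insr, the 36 libraries of 4 to 12 months lie at 5.07% or less and the 24 earlier ones at 6.94% or more, in all groups.

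The coding isoforms shifted as well. For Pik3r1, the isoform of 724 codons (p85alpha) held a median of 34.9%, 33.2%, 79.2%, 77.5% and 73.5% of the gene's RPKM at 1, 2, 4, 9 and 12 months, and its level had medians of 8.16, 6.31, 20.2, 16.9 and 19.6 RPKM. The isoform of 454 codons (p55alpha) held 31.4%, 34.8%, 6.05%, 8.91% and 9.32%. For Foxo3, the main isoform of 672 codons held 47.6%, 49%, 84.6%, 87.3% and 85.3%, and a short one of 244 codons held 38.4%, 34.3%, 14.1%, 11.3% and 13%. For Insr, the isoform of 1372 codons held 53.4%, 55.7%, 80.5%, 84.8% and 80.1%. In deposited RPKM the Foxo3 isoform of 672 codons had medians of 10.4 RPKM at 4 months and 7.36 RPKM at 2 months. With each gene's main transcript in place of the sum and libraries scaled to each other, Pik3r1 was called higher at 4 months than at 2 months (log2 difference 0.85, adjusted p = 1.63e-13 from limma), Foxo3 was still called lower (-0.32, adjusted p = 0.000416) and Insr lost its call (-0.06, adjusted p = 0.397). The second 28Si library at 4 months had the fewest reads in transcripts at its time, 56%, and its retained-intron share of Insr was 1.85%, within the range of the late libraries.

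How the members varied among mice of a group was described by deviations from the 20 group means over 60 libraries, as correlations with no test, since libraries share depth and collection. Irs1 and Foxo3 varied together (r = 0.704, Spearman 0.538, and r = 0.572 without the second 16O library at 12 months), as did Irs1 and Foxo1 (r = 0.553, 0.566 and 0.550) and Foxo1 and Foxo3 (r = 0.525, 0.489 and 0.479). Irs2 varied with Insr (r = 0.502, 0.565 and 0.493). Pik3r1 and Pik3ca ran opposite (r = -0.501, -0.501 and -0.499), and Akt1 and Akt2 were almost unrelated (r = 0.163). Irs1 and Irs2 had r = -0.545, but Spearman -0.120 and r = -0.0429 without that library, so the opposition of the 2 substrates rests on it.

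**Figure D5:**
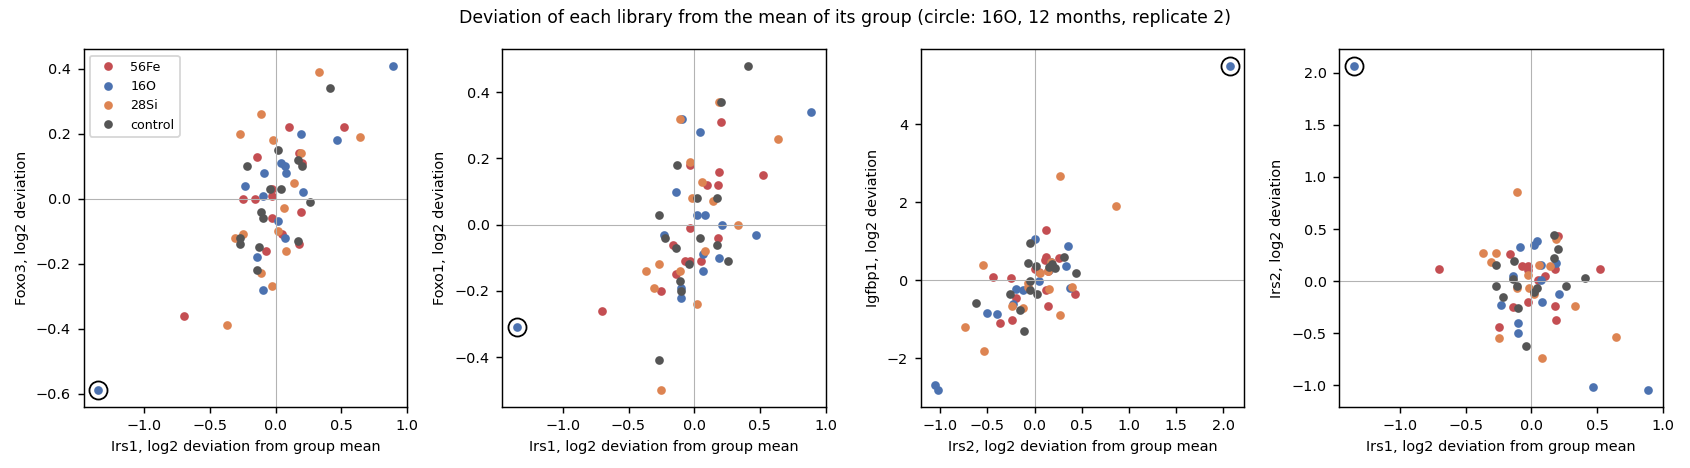
Log2 deviation of each of 60 libraries from its group mean for 4 pairs of genes (both axes), coloured by 56Fe, 16O, 28Si and control, with the second 16O library of 12 months circled. Irs1 runs with Foxo3 and Foxo1 with or without the circled library, and Irs1 against Irs2 does not (r = -0.0429 without it).

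In that library Irs2 had 19.8 RPKM, against 2.48 and 2.71 RPKM in the other 16O livers of 12 months, and Irs1 had 0.512 RPKM, against 2.29 and 3.45 RPKM. Igfbp1, the insulin-repressed FOXO target whose promoter is shown above, had 416 RPKM in it and 1.2 to 13.6 RPKM in the other 12-month libraries. Socs3, an inhibitor of insulin receptor signalling induced by cytokines, had 85.3 RPKM there and 30.2 RPKM in the first 56Fe liver, and 1.4 to 4.81 RPKM in the rest. Srebf1, the insulin-induced regulator of lipogenesis, had 18.1 RPKM there and 68.3 to 150 RPKM elsewhere at 12 months. Dbp had 3 RPKM there and 39.6 to 75 RPKM elsewhere. Over all libraries the deviations of Irs2 and Igfbp1 had r = 0.821 (Spearman 0.610) and r = 0.583 without it.

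The genes whose patterns were most like each member were taken from 10013 genes with a mean of at least 1 RPKM, by Pearson's r over 60 libraries. On deviations from group means, Irs1 was nearest to Rnf43 (0.880), Tent4a (0.872) and Sema4g (0.854), and Irs2 to Igfbp1 (0.821), Pnrc1 (0.810) and Nfkbia (0.784). Insr was nearest to Arhgef12 (0.806), Ncoa2 (0.779) and Ash1l (0.732). Foxo1 was nearest to Cobll1 (0.866), Pcdh1 (0.851) and Eif4ebp2 (0.838), and Foxo3 to Dock8 (0.818), Dhtkd1 (0.796) and Ttc7 (0.795). For the PI3K and AKT genes the nearest were weaker, Hs6st1 (0.685) for Pik3r1, Sp3 (0.628) for Pik3ca, Pdia5 (0.709) for Akt1 and Lrrc41 (0.601) for Akt2. On levels, which carry the steps in time, Pik3ca was nearest to Rnf130 (0.967), Akt2 to Yipf6 (0.946), Foxo3 to Mafg (0.917), Foxo1 to Sec24a (0.877), Irs1 to Faah (0.869), Pik3r1 to Arhgef26 (0.817), Insr to Tram2 (0.801), Irs2 to Sema4b (0.779) and Akt1 to Gfra1 (0.679).

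The rest of the pathway was followed through lists of its parts. These were also chosen with earlier results of these data known, so the all-gene shares beside them are not a test of a list. Of 10 adaptors and related receptors (148 tests over the 15 comparisons with control), 10 other PI3K subunits (123 tests) and 18 AKT activators and substrates (255 tests), none changed at the adjusted threshold in limma. Of 17 inhibitors of the pathway, 3 rose, all in 56Fe at 9 months, where 3.65% of all genes passed and the 14 tested had a median log2 difference of 0.33. Socs3 had 10.4, 11.8 and 9.01 RPKM in 56Fe livers, against 4.88, 1.33 and 2.42 RPKM in control livers (log2 difference 1.99, SE 0.38, adjusted p = 0.0366 from limma). Enpp1, which dampens the receptor, and Inpp4a, a phosphatase of PI3K lipids, rose by 0.76 and 0.92. Leaving out 1 library left 0 to 3 of the 3.

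FOXO targets rose 3 times and fell 2 times over the 15 comparisons. G6pc and Pck1 encode gluconeogenic enzymes. G6pc had 54.6, 33.2 and 52.9 RPKM in 56Fe livers at 4 months, against 14.1, 21.5 and 16.9 RPKM in control livers (log2 difference 1.43, adjusted p = 0.0315 from limma), and Pdk4 rose by 1.38 there (0.541% of all genes called). Pck1 had 985, 776 and 965 RPKM in 56Fe livers at 9 months, against 512, 410 and 494 RPKM in control livers (log2 difference 0.94, with adjusted p = 0.0265 in limma). The repressor Bcl6 fell at 9 months by 1.03 in 56Fe and by 1.93 in 16O. With 1 library left out, 0 to 1 of the list rose in 56Fe at 4 months. It was G6pc without 56Fe replicate 2 or control replicate 2, Bcl6 without 56Fe replicate 1 and Igfbp1 without control replicate 3. Pdk4 was called in none of these refits. In 56Fe at 9 months 0 to 2 rose and 0 to 3 fell, with no call in 4 of 6 refits. Without 56Fe replicate 3 of that time, G6pc (-1.24), Pdk4 (-1.86) and Bcl6 were called lower and Pck1 (0.93) higher. Bcl6 was called lower in 16O at 9 months in all 6 refits (adjusted p of 0.00580 to 0.0452 from limma).

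Insulin-induced lipogenic genes fell 13 times and rose 2 times, and most of this was at 1 month, in comparisons that share the 3 controls. In 56Fe at 1 month 5 of 10 fell, among them Fasn, Thrsp, Acly and Elovl6, where 1.18% of all genes were called. Fasn (fatty acid synthase) had 136, 86.9 and 83.2 RPKM in 56Fe livers, 87.5, 130 and 108 RPKM in 16O livers and 149, 124 and 153 RPKM in 28Si livers, against 199, 245 and 243 RPKM in control livers. It fell by 1.17 in 56Fe and by 1.05 in 16O. In 16O 4 of 10 fell, with Scd1 (stearoyl-CoA desaturase) at 503, 497 and 480 RPKM in 16O livers, against 1080, 1330 and 1580 RPKM in control livers. In 28Si 2 of 10 fell, Thrsp by 1.28 and Srebf1 by 0.73. With 1 library left out these counts were 0 to 6, 1 to 3 and 0 to 3. In 28Si at 4 months 2 of 10 rose, among them Fasn by 0.88 (0.382% of all genes called), and 0 to 2 rose with 1 library left out. At 9 months Thrsp fell by 1.45 in 56Fe and Scd1 by 2.02 in 16O, and with 1 library left out Thrsp was called in 1 of 6 refits and Scd1 in 3 of 6.

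Clock genes moved in some of the same comparisons. In 28Si at 1 month 5 of 16 fell and 1 rose (0.244% of all genes called). Arntl was higher by 1.87 and Ciart, Dbp, Per1, Per2 and Per3 were lower, with log2 differences of -1.54 to -2.38. In 56Fe at 4 months Arntl and Clock rose by 2.05 and 0.76 (0.541% of all genes called). At 1 month 2 rose and 1 fell in 16O (1.60% of all genes called), and 1 rose in 56Fe (1.18%). With 1 library left out, 2 to 5 fell in 28Si at 1 month. At that time 16O and 56Fe had no call in 3 and 5 of 6 refits. In 56Fe at 4 months 0 to 3 rose, with no call in 3 of 6 refits, and without control replicate 1 none rose and 2 fell. Their part in the lipogenic and FOXO target values was not tested. In the averages over times, 28Si livers had higher Igf1r (0.36) and lower Rps6kb1 (-0.21) and Pnpla2 (-0.26), where 2.31% of all genes passed, and no other listed pathway gene passed in an average.

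The step between 2 and 4 months also ran through the pathway lists, where the direction of most depended on the scaling. With libraries scaled to each other 66.7% of all genes were called, 50.3% of them higher. In RPKM as deposited 72.1% were called, 81.2% of them higher. Of 10 adaptors and the related receptor, 7 were lower and 1 higher when scaled, and 2 lower and 2 higher in RPKM as deposited. Igf1r was -0.44 on the first scale and -0.05 on the second, where it was not called. Of 17 inhibitors 6 fell and 3 rose when scaled, and 3 fell and 8 rose as deposited. Of 10 other PI3K subunits 4 fell and 3 rose when scaled, and 0 fell and 4 rose as deposited. Of 17 AKT activators and substrates 5 fell and 5 rose when scaled, and 2 fell and 12 rose as deposited. Rheb, an activator of mTORC1, rose on both scales (0.66 and 1.10), and Rictor, a subunit of mTORC2, fell on both (-1.09 and -0.65).

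FOXO targets split on both scales, with 7 of 21 lower and 5 higher when scaled, and 4 lower and 12 higher as deposited. The shares of all genes called were again 66.7% when scaled and 72.1% as deposited. G6pc rose on both (1.02 and 1.46) and Cited2 fell on both (-1.28 and -0.84). Of 10 lipogenic genes 3 rose when scaled and 10 as deposited, with none lower on either. Of 16 clock genes 9 fell and 2 rose when scaled, and 5 fell and 6 rose as deposited. The nuclear RNAs Malat1 and Neat1 fell on both scales, by 2.07 and 2.08 when scaled, and Kupffer markers had 6 of 11 higher when scaled and 10 as deposited, with none lower. Their part in the step of the 9 genes was not tested.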

How the data were processed

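Liver RNA of 60 mice was depleted of ribosomal RNA and sequenced as pairs. The authors mapped the reads in CLC Genomics Workbench to GRCm38 (Ensembl release 97) and deposited RPKM for each transcript and library. The authors' group means were left out. All per-sample columns were used (0 left out). Values of up to 30 reads were whole within 0.02 reads in 99.8% to 100% of cases, which gave the depth.

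Here RPKM was summed per gene. Scaling used a trimmed mean without weights over the libraries of each fit (30% of M and 5% of A trimmed). Genes reaching 0.5 RPKM in 3 libraries entered a limma fit (version 3.58.1, R 4.3.3) of log2(RPKM + 0.1), with a trend and Benjamini-Hochberg adjustment over all genes tested. A fold on this scale understates the change of low genes. Calls are at an adjusted p of at most 0.05. Overlap of groups was judged on RPKM as deposited, without this scaling. Positions, transcript types and codons come from GENCODE M21, of the same build. P-values set a difference against the spread between mice of a group. That spread does not cover differences in collection or library preparation between times. Functions were tested on simulated data.

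The rule for named genes gave full statistics for members past the threshold and for each member's lowest p in a family. It also took list genes past the threshold (up to 5 a direction) and the 3 nearest genes. The text names a selection of these, and some listed genes are not reported here. Members and lists were chosen with earlier results of these data known. Alternatives are given in the closing section.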

Additional observations from a re-analysis of the deposited data

Results flagged for a closer look

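Irs1 in 16O against 28Si at 1 month was the 1 test among the 135 between ions that passed. In this comparison 13.8% of all genes passed, so 1 of 9 members is no more than the share of all genes, and the call was lost without any 1 of 4 libraries (16O replicates 1 and 3, 28Si replicates 1 and 3). The log2 difference was -0.60 (adjusted p = 0.0261 from limma), and each of 3 16O livers was below each of 3 28Si livers. Against the shared controls, Irs1 had log2 differences of -0.69 in 16O (adjusted p = 0.0642 from limma) and, in 28Si, levels of 3.46, 2.25 and 3.84 RPKM that overlapped the control livers at 2.9, 3.45 and 3.32 RPKM. In the same pair 15 of 16 clock genes tested differed too. Their part was not tested.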

How the results depend on the processing

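The count of members called against control was 0 under every other scaling, pseudocount and filter. It was 6 with array weights (in 56Fe at 9 months Irs2, Akt1, Foxo3 and Insr, and in 16O Irs1 at 1 month and Pik3r1 at 2 months) and 0 to 3 with 1 library left out, all in 56Fe at 9 months. With the replicate number as a block it was 1, Irs1 in 16O at 1 month (-0.69, adjusted p = 0.0329 from limma). The block moved no call among the averages. Nothing says that equal numbers mark a shared litter or day, and deviations of all 3 same-numbered pairs had correlations above 0.1 only for 16O at 12 months (0.372, 0.522 and 0.254). Between ions the 1 call became 0 with no filter on low values or with only the 2 ions in the fit, 2 with the main transcript in place of the sum, and 0 to 2 with 1 library left out (0 without 16O replicate 1 or 28Si replicate 1 of 1 month, 2 without 28Si replicate 3 of 1 month or of 4 months). The 2 calls with main transcripts were Foxo1 in 16O against 28Si at 1 month (0.56) and Akt2 in 56Fe against 28Si at 4 months (-0.54). In averages over times the 0 calls became 1 with main transcripts, Akt2 in 28Si (0.44, adjusted p = 0.00157 from limma). In RPKM as deposited the step between 2 and 4 months turned its sign for Insr, to 0.09 over all groups and 0.07 in control. The average of Akt2 in 28Si was -0.01 with no filter and that of Insr in 16O ran from -0.01 to 0.19 with 1 replicate number left out. F tests of time called 5 to 7 members in control with 1 replicate number left out. The share of reads in transcripts as a covariate, leaving out the second 16O library of 12 months or the second 28Si library of 4 months, and, for the lists, 1 library left out or RPKM as deposited were chosen after seeing the data. Over the other settings, counting each single value once for each setting, 588 kept their direction and side of the threshold, 45 lost their call, 16 gained one and 4 turned sign. The cause of these changes was not tested. Among the 588 are values not called in the main fit, which kept their side by staying uncalled, so 588 is not a count of calls that held. With 3 mice a group, the difference of Irs2 in 56Fe at 9 months, 0.79 on the log2 scale, did not pass in the main fit. The smallest difference that could have passed was not worked out.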

Other observations

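The second 28Si liver at 9 months had 36.7 RPKM of Igfbp1, against 2.78 and 1.61 RPKM in the other 28Si livers, and 22.4 RPKM of Socs3, against 3.76 and 2.07 RPKM. Its Irs2 level, 4.57 RPKM, lay beside the 4.24 RPKM of the first 28Si liver, and its Irs1 level, 1.73 RPKM, beside 1.74 RPKM. No test was run on single mice.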
